A study of Mus musculus with 8 samples.

Results

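The transcripts of the collagens, the lysyl oxidases, elastin and its main partners were examined in LPS-injured mouse lung with and without tangeretin, a methoxylated citrus flavone abbreviated Tan. The set held every row of the count table whose symbol was a collagen chain (Col, a number, a, a number) or Lox or Loxl1 to Loxl4, together with Eln, Fn1, Fbn1, Fbln5, Tnc and Sparc, which came to 55 of 24584 genes. RNA-seq was run on lung tissue of 8 samples in 2 groups of 4. The LPS group received lipopolysaccharide at 5 mg/kg intraperitoneally, and the LPS + Tan group received tangeretin at 50 mg/kg by the same route 30 min before the same LPS dose. Lungs were taken 12 h after LPS. Per the study's methods the mice were male ICR, an outbred strain, aged 6 to 8 weeks, and the labels give the genotype of all 8 samples as "widetype". Both groups carried the LPS challenge and no mouse without LPS was analysed here, so the values describe injured lungs with and without the compound and not the injury itself. The labels do not say whether the 4 samples of a group came from 4 separate animals, and p-values measure the spread between these samples. The n that the study states for its RNA-seq equals the number of samples per group. Raw totals lay between 38895654 and 39931970 counts per sample. The 8 alveolar epithelium markers listed summed to between 5985 and 10245 CPM (counts scaled to a common library total) in every sample and none was at 0.

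The extracellular matrix of the lung joins fibrillar collagens, which carry tension, with elastic fibres, which give recoil, and with thin basement membranes of type IV collagen between the alveolar epithelium and the capillary endothelium. Collagen chains are hydroxylated and folded into triple helices in the endoplasmic reticulum, trimmed outside the cell and crosslinked by lysyl oxidases, copper enzymes that oxidise lysines of collagen and of elastin. Matrix transcripts come mainly from fibroblasts, smooth muscle cells, pericytes and endothelium, and fibrillar collagen and fibronectin are known for their build-up in scarring lungs.

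Of the 55 genes, 47 had enough reads to be tested and 4 of these were called, which here means an unadjusted p below 0.05 by edgeR's quasi-likelihood test. Col8a1, a chain of a short-chain collagen of vessel walls, and Fbln5, fibulin-5, an organiser of elastic fibres, were higher in LPS + Tan. Col13a1 and Col23a1, collagens anchored in the plasma membrane, were lower. These 2 higher members (4.26% of those tested) and 2 lower members (4.26%) stood beside 2.87% and 2.25% of all 15706 tested genes called in the same directions. With library totals alone as scaling the calls were 4 higher and 2 lower. This scaling moved all genes upward, with 36.8% of log2 fold changes below 0 in place of 48.2%. The share of all genes called with it was not counted. None of the 4 members named above passed after Benjamini-Hochberg adjustment over all tested genes. The lowest adjusted p among the members was 0.924 by edgeR and 0.384 by DESeq2. For all genes the lowest edgeR adjusted p was 0.497, and DESeq2 had 35 genes at an adjusted p below 0.05. DESeq2 tested all 55 members and put 4 higher and 5 lower at an unadjusted p below 0.05. Of the 24558 genes it tested, 2.33% and 2.08% were called in these directions. It had 0 members at an adjusted p below 0.05. The thresholds of the study, which add to the same p a log2 fold change beyond 1 in either direction, were passed by 0 members and by 0.649% of all tested genes. There were 0 members whose CPM ranges did not overlap between the groups, beside 3.13% of all tested genes.

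The proximal promoters of 3 of the 4 called genes are shown so that the sequence before their start sites can be compared, and that of Col23a1 is left out for the place of its start. The letters are from RefSeq on the GRCm38.p6 build, run 5′ to 3′ on the strand of the gene and stop before the first base of any annotated transcript of it. Capitals mark matches, on either strand, to the TATA box TATAAA, the CCAAT box CCAAT, the GC box GGGCGG (which reads CCGCCC when it lies on the other strand) and the AP-1 site TGACTCA.
Col8a1, chr16:57754738-57754987, minus strand: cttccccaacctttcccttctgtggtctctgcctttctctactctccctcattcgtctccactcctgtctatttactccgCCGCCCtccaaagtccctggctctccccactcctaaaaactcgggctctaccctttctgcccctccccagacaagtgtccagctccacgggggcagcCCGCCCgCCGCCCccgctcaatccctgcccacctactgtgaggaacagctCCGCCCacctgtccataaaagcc
Fbln5, chr12:101819120-101819369, minus strand: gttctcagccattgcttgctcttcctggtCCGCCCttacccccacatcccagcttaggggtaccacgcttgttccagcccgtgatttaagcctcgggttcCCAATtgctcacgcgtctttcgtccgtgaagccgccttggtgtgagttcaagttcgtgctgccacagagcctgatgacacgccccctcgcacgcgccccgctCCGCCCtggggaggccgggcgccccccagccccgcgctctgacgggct
Col13a1, chr10:61979207-61979358, minus strand: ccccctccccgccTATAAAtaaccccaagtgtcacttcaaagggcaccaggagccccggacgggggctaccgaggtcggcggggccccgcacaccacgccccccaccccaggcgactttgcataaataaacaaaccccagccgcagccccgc
The Col8a1 window of 250 bases held 4 GC boxes, and the Fbln5 window of 250 bases held 2 GC boxes and 1 CCAAT box. The 152 bases shown for Col13a1 held a TATA box and none of the other 3 motifs. They do not reach the start at 61979108, which lies inside a longer transcript. The TATA box stood 237 bases before that start. The annotated start of Col23a1 lies 241 bases inside a longer transcript. Windows of 250 bases before the start were at hand for 40 of the 55 members (45 windows, some genes with several starts). A GC box stood in 60.0% of these windows and in 32.7% of all 32851 windows of the genome. The CCAAT box stood in 31.1% and 33.8%, the TATA box in 15.6% and 12.4% and the AP-1 site in 2.22% and 4.46%. These matches describe letters only.

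Levels of different genes were compared as FPKM, the counts divided by gene length and library total, as deposited by the authors. Mean FPKM over the 8 samples ran from 0.00096 for Col19a1 to 1141 for Sparc, with 6 members at 100 or more, 13 between 10 and 100, 14 between 1 and 10, 11 between 0.1 and 1 and 11 below 0.1. Sparc, a collagen-binding glycoprotein of the matrix, came first, followed by the basement membrane chains Col4a1 (719) and Col4a2 (445), Lox (428), Eln (335) and the fibrillar chain Col3a1 (133). The ranges of Col4a2 and Lox overlapped across samples, as did those of Lox and Eln, whereas every sample of Sparc lay above every sample of Col4a1. Col4a1, Sparc, Col4a2, Lox and Eln together took between 72.8% and 79.3% of the reads of the set in each sample, and Eln alone varied from 4.18% to 10.6%. The whole set took 1.82% ± 0.164 (SD, n = 4) of all counts in LPS and 1.86% ± 0.149 in LPS + Tan. These shares differed by less than their spread.

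**Figure D1:**
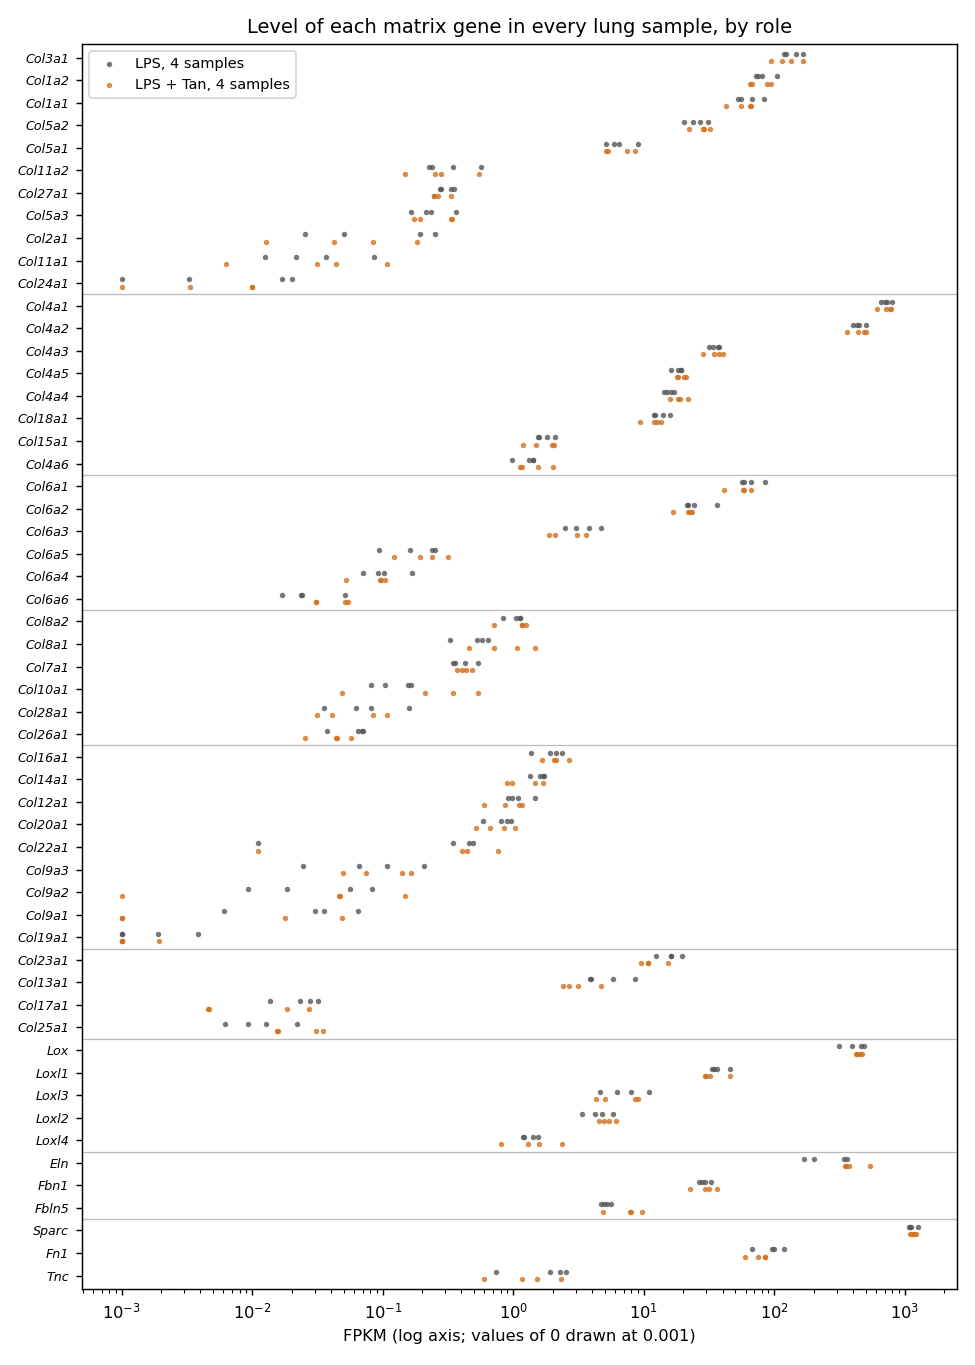
FPKM of each of the 55 matrix genes (log axis) in 4 LPS samples (grey) and 4 LPS + Tan samples (orange), with genes grouped by role and ordered by mean level within a role. The 6 highest members lie above 100 FPKM, and the points of both groups overlap for every gene.

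The 8 members below the count filter of the edgeR fit were Col24a1 (19 counts over the 8 samples), Col6a6 (83), Col26a1 (65), Col9a1, Col9a2 and Col19a1 (4 to 44) and Col17a1 and Col25a1 (33 to 47). Several of these are textbook collagens of cartilage or of skin hemidesmosomes. DESeq2 and edgeR with no count filter tested all 8 and called 0 of them, with lowest unadjusted p-values of 0.199 and 0.167. Among the 47 tested members the log2 fold change of LPS + Tan against LPS was below 0 for 29 (61.7%), beside 48.2% of all tested genes, and the median was -0.05 beside 0.01. Without scaling factors the same counts were 24 of 47 (51.1%) beside 36.8%. The number below 0 lay between 26 and 35 of 47 when 1 sample was left out.

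**Figure D2:**
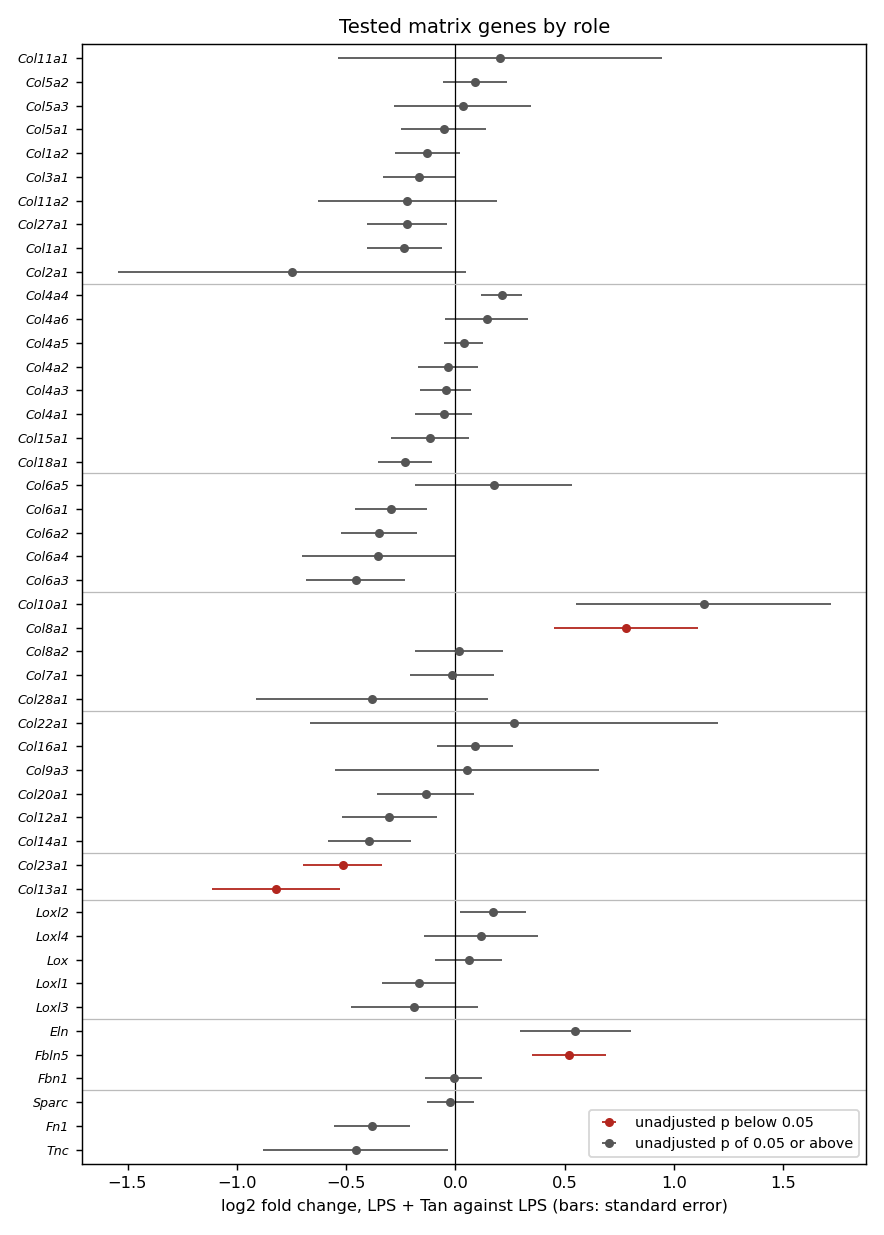
Log2 fold change of LPS + Tan against LPS for the 47 tested matrix genes (points, edgeR) with its standard error (bars), grouped by role in the order fibrillar, basement membrane, beaded filament, short-chain and anchoring, fibril-associated, transmembrane, lysyl oxidases, elastic fibre, and adhesive. Red marks the 4 genes with an unadjusted p below 0.05, and 29 of the 47 points lie below 0.

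The fibrillar collagens form the tension-bearing fibres of airways, vessels and septa, and 10 of 11 were tested with 0 calls, 3 above and 7 below 0. Col3a1, the chain of type III collagen, had the highest level of the group, with 918, 663, 678 and 813 CPM in LPS 1 to 4 and 741, 525, 927 and 641 CPM in LPS + Tan 1 to 4. Its highest value was in LPS + Tan 3 and its lowest in LPS + Tan 2, so the treated group spanned the LPS group (log2 fold change -0.16, SE 0.17). The lowest p of the group belonged to Col1a1, the major chain of type I collagen, at 495, 331, 400.1 and 314 CPM in LPS and 389, 253, 386 and 326 CPM in LPS + Tan (log2 fold change -0.23, SE 0.17). LPS 1 was highest and LPS + Tan 2 lowest, with all other samples between them. Its partner Col1a2 (80.5 FPKM), the fibril-regulating chains Col5a1 (6.60) and Col5a2 (26.7) and the low chains Col5a3 and Col27a1 (0.25 and 0.29) had log2 fold changes between -0.22 and 0.09. In each of Col1a1, Col1a2, Col5a1 and Col5a3 the highest LPS sample was replicate 1 and the lowest LPS + Tan sample was replicate 2 or, for Col5a3, replicate 4.

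Col2a1, the main collagen of cartilage, was present at 0.30, 0.15, 1.15 and 1.52 CPM in LPS and 0.25, 0.08, 1.10 and 0.50 CPM in LPS + Tan. The other cartilage chains Col11a1 and Col11a2 reached their highest values in LPS 4 and LPS + Tan 3, and Col11a2 read 2.67, 1.76, 1.85 and 4.40 CPM in LPS and 1.14, 1.94, 4.25 and 2.14 CPM in LPS + Tan. Col2a1 and Col11a1 had the widest spread within groups of all tested members, with the SD of Col2a1 at 84.4% of the mean in LPS and 92.5% in LPS + Tan. The 11 cartilage markers in the table summed to between 26.8 and 40.1 CPM in LPS and 21.9 and 55.9 CPM in LPS + Tan, with their highest sums in LPS 4 and LPS + Tan 3. Chad and Cytl1 carried most of these sums, and the other 9 markers together stayed between 1.19 and 4.99 CPM. Aggrecan (Acan), a defining cartilage proteoglycan, read 0.28, 0.31, 0.73 and 1.13 CPM in LPS and 0.25, 0.13, 1.92 and 0.33 CPM in LPS + Tan, 6 of the 11 were at 0 in some sample, and Comp and Matn1 stayed at or below 0.15 CPM. The part of airway cartilage in these values was not tested.

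Basement membrane collagens took the largest share of reads of the 9 role groups, with 8 of 8 tested and 0 calls. Col4a1, which with Col4a2 forms the common type IV network, read 4814, 4332, 5307 and 4626 CPM in LPS and 5163, 5084, 4715 and 4027 CPM in LPS + Tan. LPS + Tan 1 to 3 lay inside the LPS range and LPS + Tan 4 lay below it (log2 fold change -0.05, SE 0.13). Col4a4, a chain of the network particular to mature alveolar and glomerular basement membranes, had the lowest p at 161, 171, 152 and 181 CPM in LPS and 229, 194, 201 and 168 CPM in LPS + Tan. LPS + Tan 1 to 3 lay above every LPS sample and LPS + Tan 4 lay inside the LPS range (log2 fold change 0.21, SE 0.09, adjusted p = 0.924 by edgeR). Col4a4 was called higher in 5 of 17 other settings, among them DESeq2, edgeR with library totals only and limma on log2(FPKM + 1). Its partners Col4a3 and Col4a5 had log2 fold changes of -0.04 and 0.04, Col4a6 had 0.14, and the chains that carry endostatin-like ends, Col15a1 and Col18a1, had -0.12 and -0.23. The group as a whole took 0.834% ± 0.0691 of counts in LPS and 0.837% ± 0.101 in LPS + Tan.

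Chains that are built into one helix or network were compared as ratios of their FPKM within a sample, for 6 pairs. Col4a1 to Col4a2 was the tightest, at 1.63 ± 0.0155 in LPS and 1.62 ± 0.0719 in LPS + Tan (SD, 4 samples each), with all 8 samples between 1.52 and 1.69. Col1a1 to Col1a2 was 0.785 ± 0.0987 and 0.731 ± 0.0702, and Col6a1 to Col6a2 was 2.59 ± 0.206 and 2.64 ± 0.300. Col4a4 to Col4a3 was 0.449 ± 0.0483 in LPS and 0.536 ± 0.0542 in LPS + Tan, with LPS + Tan 2 inside the LPS range and the other 3 treated samples above it. Exact two-sided permutation tests gave p = 0.114 for this pair and 0.257 to 0.771 for the other 5, with 0.686 as the lowest Benjamini-Hochberg value over the 6 pairs, where 70 arrangements allow no p below 0.0286. Col4a1 and Col4a2 sit head to head on chromosome 8 (GRCm38.p6, 11198423 to 11312889 and 11312805 to 11449287) and share 85 bases at their 5′ ends, and Col4a4 and Col4a3 share 114 bases in the same way on chromosome 1. Whether the counting used strand is not given in the sources used here, so reads in these short overlaps cannot be assigned.

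**Figure D3:**
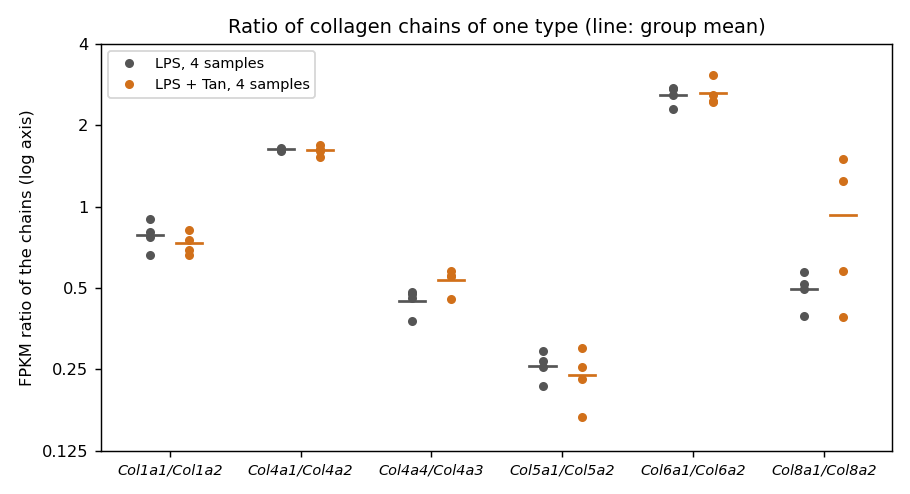
FPKM ratio of 6 pairs of collagen chains of the same type (log axis) in 4 LPS samples (grey points) and 4 LPS + Tan samples (orange points), with lines at the group means. The Col4a1 to Col4a2 ratio stays between 1.52 and 1.69 in all 8 samples, while Col8a1 to Col8a2 runs from 0.389 to 1.502 within LPS + Tan.

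Type VI collagen forms beaded filaments around cells, and 4 of its 5 tested chains had log2 fold changes below 0, with a median of -0.35 and 0 calls. Col6a1 was the most abundant of them, with 334, 233, 264 and 224 CPM in LPS and 230.0, 265, 230.5 and 162 CPM in LPS + Tan. LPS 1 was the highest sample and LPS + Tan 4 the lowest, and 3 treated samples lay inside the LPS range (log2 fold change -0.30, SE 0.16). Col6a3, whose long chain completes the Col6a1 and Col6a2 helix, read 51.2, 32.7, 26.9 and 41.5 CPM in LPS and 33.1, 22.7, 38.96 and 20.2 CPM in LPS + Tan. LPS + Tan 2 and 4 lay below every LPS sample (log2 fold change -0.46, SE 0.23). Col6a3 was called lower in 4 of 17 other settings, among them DESeq2 and edgeR with no count filter. Col6a2 had a log2 fold change of -0.35 (SE 0.17) and was also called lower in 4 of them, among them no count filter and the replicate block. The group took 0.0461% ± 0.00997 of counts in LPS and 0.0381% ± 0.00632 in LPS + Tan.

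Among the short-chain and anchoring collagens 5 of 6 were tested, with 1 call. Col8a1 lies on chromosome 16 and its counts came to 2.67, 2.96, 1.68 and 3.29 CPM in LPS and 5.42, 2.32, 7.45 and 3.66 CPM in LPS + Tan. LPS + Tan 1, 3 and 4 lay above all LPS samples, with LPS + Tan 4 only just above LPS 4, and LPS + Tan 2 lay among them (log2 fold change 0.78, SE 0.33, adjusted p = 0.924 by edgeR). Its partner chain Col8a2 was the most abundant of this group at 1.05 FPKM, with 4.73, 5.00, 3.73 and 5.04 CPM in LPS and 3.17, 5.23, 5.25 and 5.55 CPM in LPS + Tan (log2 fold change 0.02, SE 0.20). The ratio of Col8a1 to Col8a2 was 0.495 ± 0.0747 in LPS and 0.929 ± 0.530 in LPS + Tan, with p = 0.257 by the exact permutation test. Leaving out LPS 1, LPS 2, LPS 3, LPS + Tan 1 or LPS + Tan 3 each ended the call of Col8a1, at a log2 fold change between 0.49 and 0.82. It was also not called with limma-voom, with limma on log2 FPKM at either pseudocount or with the replicate block, which makes 9 of 17 other settings. Col10a1, the collagen of hypertrophic cartilage, had the highest log2 fold change of all members at 1.13 (SE 0.58) but was not called, with 0.25 to 0.51 CPM in LPS and 0.15 to 1.69 CPM in LPS + Tan, where replicate 2 was lowest and replicate 3 highest. Without LPS + Tan 3 its log2 fold change was 0.67 and it was not called, and without LPS + Tan 2 it was 1.48 and it was called. The anchoring fibril chain Col7a1 had a log2 fold change of -0.02 and Col28a1 of -0.38.

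Fibril-associated collagens decorate the surface of fibres, and 6 of 9 were tested with 0 calls, 3 above and 3 below 0. Col16a1 had the highest level at 2.03 FPKM, with 15.0, 12.2, 8.66 and 13.6 CPM in LPS and 13.6, 13.1, 17.1 and 10.6 CPM in LPS + Tan (log2 fold change 0.09, SE 0.17). Col14a1, which binds type I fibrils, had the lowest p of this group at 12.3, 9.59, 11.9 and 11.3 CPM in LPS and 10.4, 6.92, 11.9 and 6.36 CPM in LPS + Tan. Its 4 LPS values lay close together, and LPS + Tan 2 and 4 lay below them (log2 fold change -0.39, SE 0.19). Col14a1 was called lower in 7 of 17 other settings, among them DESeq2, limma-voom and edgeR with no count filter. The related Col12a1 had a log2 fold change of -0.30 (SE 0.22). Col22a1, a collagen of tissue junctions, split across both groups at 0.10, 4.16, 4.51 and 3.16 CPM in LPS and 4.05, 7.05, 3.71 and 0.10 CPM in LPS + Tan. LPS 1 and LPS + Tan 4 held 4 counts each, and the other 6 samples lay between 3.16 and 7.05 CPM.

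Both tested transmembrane collagens were called lower, while Col17a1 and Col25a1 were below the count filter. Col13a1, a cell-surface collagen of adhesion sites, read 37.3, 25.1, 54.6 and 25.02 CPM in LPS and 19.97, 30.4, 15.6 and 17.2 CPM in LPS + Tan. LPS + Tan 1, 3 and 4 lay below all LPS samples and LPS + Tan 2 lay inside their range (log2 fold change -0.82, SE 0.29, adjusted p = 0.924 by edgeR). Col23a1, a related collagen that is also shed from the cell surface, read 97.1, 74.2, 117 and 97.0 CPM in LPS and 56.8, 92.1, 64.1 and 64.5 CPM in LPS + Tan. The arrangement was the same, with LPS + Tan 2 alone inside the LPS range (log2 fold change -0.52, SE 0.18, adjusted p = 0.924 by edgeR). Both were highest of all samples in LPS 3 and highest among the treated samples in LPS + Tan 2. Without LPS 3 neither was called, at log2 fold changes of -0.51 for Col13a1 and -0.39 for Col23a1, and Col13a1 was also not called without LPS + Tan 3 (-0.69) or without LPS + Tan 4 (-0.76).

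The fibroblast marker Pdgfra, the receptor chain for PDGF-AA, was highest within each group in the same samples, with 979.9, 1009, 1317 and 1075 CPM in LPS and 917, 1335, 968 and 746 CPM in LPS + Tan (log2 fold change -0.19, SE 0.18). Pdgfra was picked after its values were seen, and of the other 9 fibroblast markers 0 were highest in these samples in both groups. Markers of other cell types were highest there too. Among them were Pdgfrb of pericytes, at 155 CPM in LPS 3 and 156 CPM in LPS + Tan 2, and Cdh5 of endothelium, at 1534 and 1435 CPM. The member Loxl1, at 152 CPM in both, was likewise highest in these samples. The 10 lung fibroblast markers as a list summed to 2568 to 2714 CPM in LPS and 2719 to 2844 CPM in LPS + Tan, with none at 0 in any sample, 1 of 10 (Gli1) called higher beside 2.87% of all tested genes, and 0 called lower. These sums did not overlap, but Inmt alone went from a mean of 330 CPM to 520.3 CPM, and without it, a check added after the values were seen, the sums of the other 9 overlapped, at 2276 to 2396 CPM in LPS and 2043 to 2559 CPM in LPS + Tan. In bulk tissue fewer cells of a type and less RNA per cell cannot be told apart. The part of fibroblasts, pericytes or endothelium in the values of Col13a1 and Col23a1 was not tested.

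**Figure D4:**
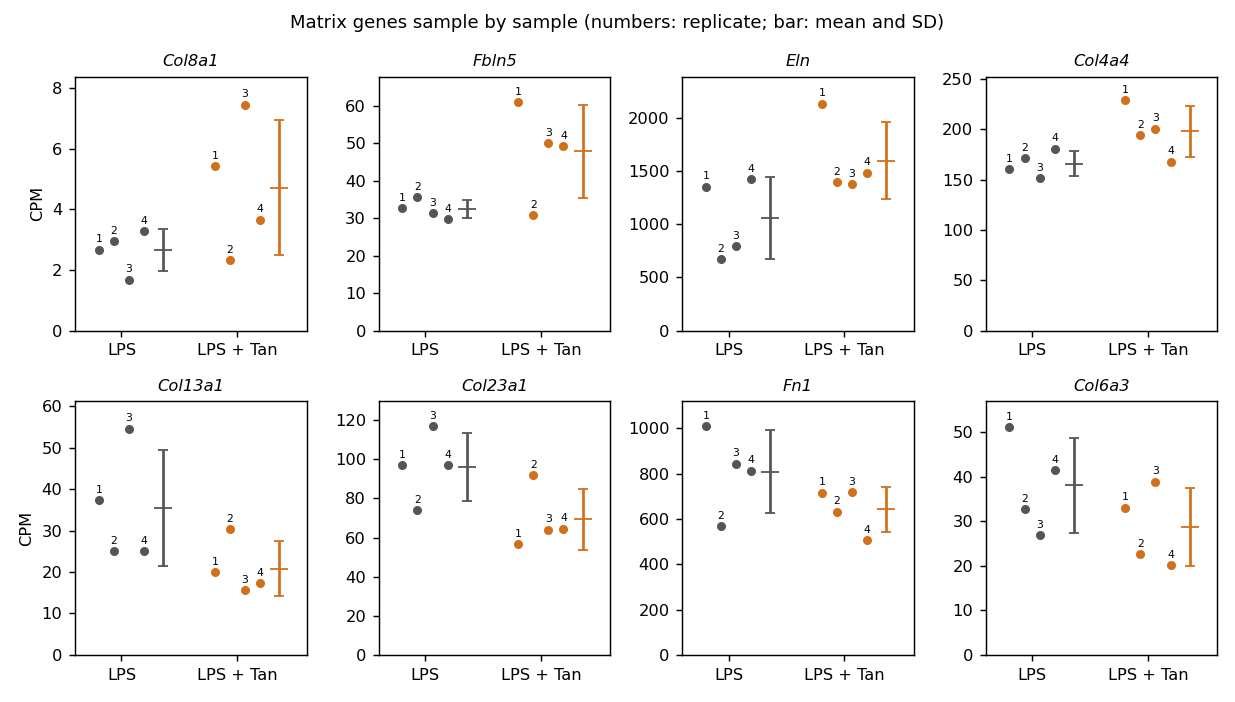
CPM of 8 matrix genes in each sample (points, numbered by replicate, linear axes from 0), with bars for the group mean and SD of 4 samples. In Col8a1, Fbln5, Col13a1 and Col23a1 the sample LPS + Tan 2 lies within the range of the LPS group and the other 3 treated samples lie to one side of it.

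All 5 lysyl oxidases were tested, with 0 calls. Lox, the founding enzyme of the family, was high in every sample at 1925, 1551, 2261 and 2397 CPM in LPS and 2068, 2309, 2127 and 2236 CPM in LPS + Tan. The treated samples lay inside the LPS range and closer together (log2 fold change 0.06, SE 0.15). Loxl2, which acts on type IV collagen, had the lowest p of the family at 34.0, 27.9, 19.5 and 24.9 CPM in LPS and 35.9, 29.1, 31.6 and 26.7 CPM in LPS + Tan, with overlapping groups (log2 fold change 0.17, SE 0.15). Loxl1, the enzyme tied to elastic fibre upkeep, had a log2 fold change of -0.17 (SE 0.17), and Loxl3 and Loxl4 had -0.19 and 0.12. Lox stood at 428 FPKM beside 35.8 for Loxl1, 7.05 for Loxl3, 4.89 for Loxl2 and 1.42 for Loxl4, where the ranges of Loxl3 and Loxl2 overlapped.

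In the elastic fibre group, Eln and Fbln5 had higher means in LPS + Tan, and Fbn1, the microfibril scaffold, was at the same level in both groups (log2 fold change -0.01, SE 0.13). Eln encodes tropoelastin, the monomer of elastin, and read 1355, 674, 791 and 1427 CPM in LPS and 2135, 1399.5, 1377 and 1486 CPM in LPS + Tan. LPS 2 and 3 were low and LPS + Tan 1 was high, while LPS 1 and 4 lay beside the remaining treated samples (log2 fold change 0.55, SE 0.25, adjusted p = 0.924 by edgeR). Eln was called higher in 9 of 17 other settings, among them DESeq2, limma-voom, no count filter and the replicate block, and not without LPS 2, LPS 3 or any 1 LPS + Tan sample. Fbln5 on chromosome 12 read 32.8, 35.6, 31.4 and 29.8 CPM in LPS and 61.1, 30.9, 50.1 and 49.4 CPM in LPS + Tan. The LPS samples lay close together, LPS + Tan 1, 3 and 4 lay above them and LPS + Tan 2 lay among them (log2 fold change 0.52, SE 0.17, adjusted p = 0.924 by edgeR). Across 17 other settings, including each sample left out, Fbln5 was called in each, with log2 fold changes from 0.39 to 0.68 and an adjusted p from 0.143 to 0.9999. The group took 0.139% ± 0.0389 of counts in LPS and 0.195% ± 0.0408 in LPS + Tan, and Eln made up 67.9% to 82.6% of it in LPS and 78.8% to 84.3% in LPS + Tan.

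The summed markers of pericytes, which wrap capillaries, followed these genes in some samples and not in others. The 7 pericyte markers, none at 0 in any sample, summed to 225 to 261 CPM in LPS and 211 to 326 CPM in LPS + Tan, with 3 of 7 called higher (Higd1b, Cox4i2 and Trpc6) beside 2.87% of all tested genes, and with sums of 326, 288, 318 and 211 CPM in LPS + Tan 1 to 4. LPS + Tan 1 and 3 had the highest sums and the highest values of Col8a1 and Fbln5, but LPS + Tan 2, with a sum above every LPS sample, had both genes inside the LPS range, and LPS + Tan 4, with the lowest sum of all 8 samples, had both above it. Eln was lowest of the treated samples in LPS + Tan 3. The 7 endothelial markers summed to 3646 to 4424 CPM in LPS and 4009 to 5351 CPM in LPS + Tan, with 1 of 7 (Kdr) called higher, and the 8 smooth muscle markers to 231 to 392 CPM and 267 to 403 CPM with 0 calls. The part of these cells in the values of Col8a1, Fbln5 and Eln was not tested.

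Of the adhesive and matricellular proteins all 3 were tested with 0 calls and all 3 log2 fold changes were below 0. Fn1, fibronectin, which is made by fibroblasts and macrophages and carries the integrin-binding RGD site, read 1009.7, 567, 843 and 813 CPM in LPS and 716, 632, 717 and 505 CPM in LPS + Tan. LPS + Tan 4 lay below all LPS samples and the other treated samples lay between LPS 2 and the remaining LPS samples (log2 fold change -0.38, SE 0.18, adjusted p = 0.924 by edgeR). Fn1 was called lower in 3 of 17 other settings, which were DESeq2, no count filter and without LPS 2. Sparc was the most even member, with 3302, 2853, 2917 and 2903 CPM in LPS and 3183, 2865, 3099 and 2986 CPM in LPS + Tan and an SD of 6.93% and 4.55% of the mean (log2 fold change -0.02, SE 0.11). Tnc, tenascin-C, a matrix protein of injury and repair, had a log2 fold change of -0.46 (SE 0.42) and a wide spread in both groups. The 7 macrophage and monocyte markers summed to 1212 to 2273 CPM in LPS and 1368 to 2204 CPM in LPS + Tan, with 0 calls.

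The median SD of the 33 tested members at 1 FPKM or more was 17.4% of the mean in LPS and 19.6% in LPS + Tan, and that of the 14 tested members below 1 FPKM was 38.8% and 48.8%. Among the 6 members above 100 FPKM Eln stood out in LPS, with an SD of 36.2% of the mean. In LPS + Tan it had 22.5% and Col3a1 had 24.0%. Col4a1 had 8.59% in LPS and 10.9% in LPS + Tan. LPS 1 was the highest LPS sample for 19 of the 47 tested members and LPS 2 the lowest for 20. In LPS + Tan, replicate 3 was the highest for 18 members and replicate 1 for 16, and replicate 4 was the lowest for 21.

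**Figure D5:**
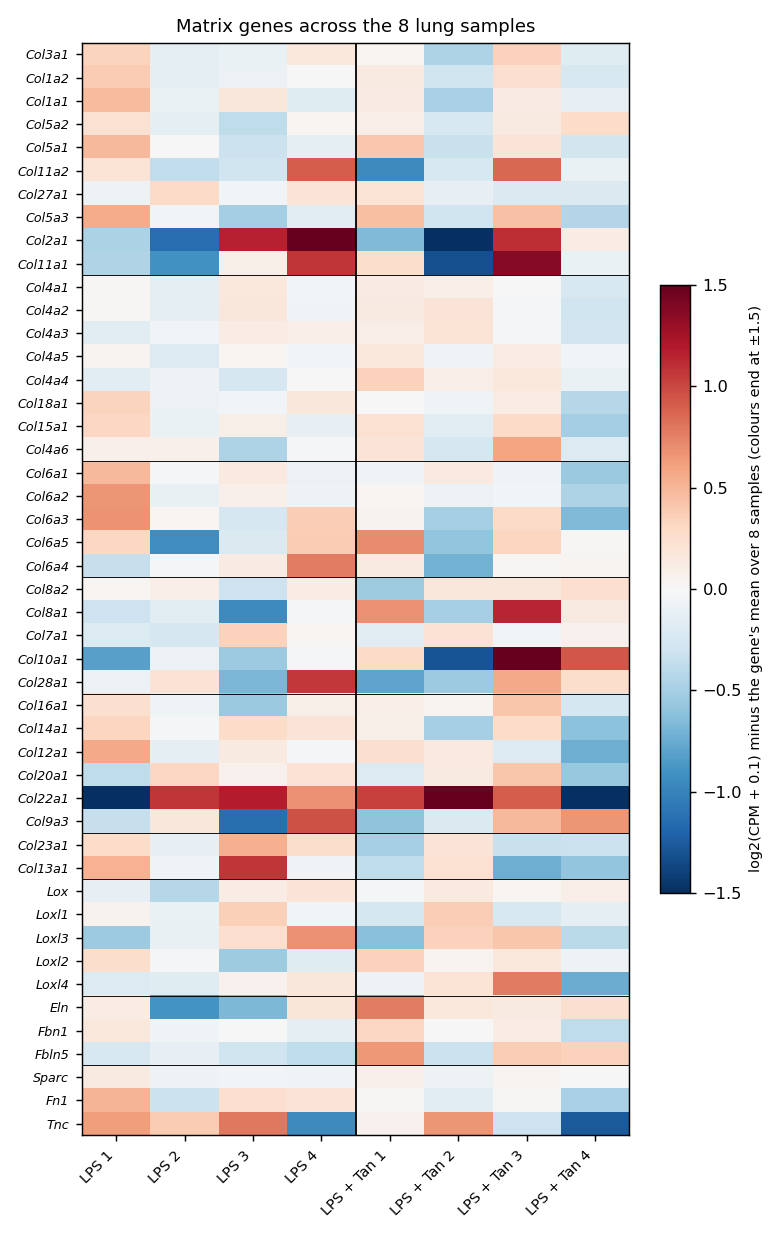
Log2(CPM + 0.1) of the 47 tested matrix genes minus the gene's mean over the 8 samples, with genes grouped by role and samples in columns (red above the mean, blue below, colours ending at 1.5 in either direction). Basement membrane chains are pale throughout, for the 10 fibrillar chains LPS + Tan 3 lies above the mean for 9 and LPS + Tan 2 for 0, and Col22a1 is dark blue in LPS 1 and LPS + Tan 4.

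Genes that build, hold or sense this matrix were read from 5 lists, in which 117 different genes were tested, 5 were called higher and 2 lower, beside the same 2.87% and 2.25% of all genes. Of the 28 tested genes for collagen modification and secretion 2 were higher and 0 lower. Plod2, a lysyl hydroxylase that sets the type of crosslink, read 43.7, 45.6, 23.6 and 34.9 CPM in LPS and 75.0, 37.6, 60.1 and 58.1 CPM in LPS + Tan (log2 fold change 0.60, SE 0.22). P3h2, a prolyl 3-hydroxylase, read 5.66, 6.66, 4.46 and 4.55 CPM in LPS and 9.98, 6.54, 8.81 and 6.66 CPM in LPS + Tan (log2 fold change 0.54, SE 0.18). In both, as in Col8a1 and Fbln5, the treated samples 1 and 3 were the highest and the treated sample 2 the lowest.

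The 18 tested genes of microfibril and elastic fibre assembly and the 31 small proteoglycans and matricellular proteins held 0 calls in either direction, with median log2 fold changes of 0.01 and -0.04. Of the 23 collagen and fibronectin receptors 1 was higher and 2 lower. Itgb3, the β3 integrin subunit that binds fibronectin and vitronectin with αv, read 169, 166, 209 and 163 CPM in LPS and 116, 178, 119.6 and 109.6 CPM in LPS + Tan (log2 fold change -0.48, SE 0.17). LPS 3 and LPS + Tan 2 were again the highest of their groups, as in Col13a1 and Col23a1. Itga1, a collagen-binding integrin chain, read 194, 216, 222 and 217 CPM in LPS and 209.6, 186, 195 and 150.2 CPM in LPS + Tan, with overlapping groups (log2 fold change -0.24, SE 0.10). Itgb5, another partner of αv, read 93.8, 89.8, 62.5 and 86.2 CPM in LPS and 122, 88.3, 128 and 98.1 CPM in LPS + Tan, where replicate 2 alone lay inside the LPS range (log2 fold change 0.35, SE 0.14).

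Of the 20 TGF-beta genes 2 were higher and 0 lower. Tgfb2, a ligand of this pathway, a main inducer of collagen and elastin transcription, read 26.9, 20.2, 17.6 and 23.0 CPM in LPS and 46.1, 28.5, 38.2 and 30.1 CPM in LPS + Tan. Every treated sample lay above every LPS sample (log2 fold change 0.66, SE 0.16, adjusted p = 0.850 by edgeR). Eng, endoglin, an endothelial co-receptor of the family, also did not overlap between the groups, with 518, 485, 408 and 526 CPM in LPS and 705, 608, 581 and 543 CPM in LPS + Tan (log2 fold change 0.29, SE 0.11, adjusted p = 0.924 by edgeR). Of the 117 tested pathway genes these 2 alone had no overlap, beside 3.13% of all tested genes. The ligands Tgfb1 and Tgfb3 and the 16 other genes of the list had unadjusted p-values of 0.05 or above.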

How the data were processed

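RNA-seq was run on lung tissue of 4 LPS and 4 LPS + Tan samples. The authors deposited a table of raw read counts per gene and a table of FPKM values for the same 24584 genes. FPKM as deposited equals the count divided by gene length and library total. The labels name the builds GRCm38 and mm10. Aligner, counter and annotation: not given in the sources used here. For RNA, TRIzol and a VAHTS Universal V6 kit are named in the methods of the study, whereas the sample labels name another extraction and library kit, so the protocol of these libraries is not settled. Groups were taken from the labels, and 0 sample columns stayed unmapped. Totals lay between 38895654 and 39931970 counts, and no library repeated another.

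The deposited counts of all 8 samples were fitted in edgeR 4.0.16 under R 4.3.3 (filterByExpr, TMM, quasi-likelihood test, no covariate), leaving 15706 genes. P-values were adjusted by the Benjamini-Hochberg method over these. The SE of a log2 fold change is its size over the square root of F. CPM scale each count to the raw library total. Alternatives were DESeq2 1.42.0, RLE factors, library totals only, no filter, at least 1 CPM in 4 samples, limma 3.58.1 (voom, or log2 FPKM with a pseudocount of 1 or 0.1), a replicate block and each sample left out. On simulated counts for 15706 genes at this size the test recovered 66.5% of genes changed 2-fold and 87.0% of genes changed 3-fold at an adjusted p below 0.05. Of its calls 6.99% and 9.38% were false. Changes smaller than 2-fold, such as those of all called members, were not simulated, so recovery at that size is not known.

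Members and lists were chosen with earlier results of these data known. Described sample by sample were, in each role, the member with the highest mean FPKM and the one with the lowest p, every member with an unadjusted p below 0.05 or without overlap, and pathway genes with an unadjusted p below 0.05. Col2a1, Col11a2, Col10a1, Col22a1 and the markers Acan and Pdgfra were added after their values were seen. Single values of Loxl1 and of the markers Pdgfrb, Cdh5, Higd1b and Cox4i2 were also picked after they were seen. Of 211 list entries 207 were in the table. Promoters and coordinates are from RefSeq on GRCm38.p6, in which all 55 members were found. Chain ratios were tested with scipy 1.17.1.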

Additional observations from a re-analysis of the deposited data

Results flagged for a closer look

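In each group of 4 samples, the gap between the most distant sample and its nearest neighbour was divided by the range of the group, on edgeR's log2 CPM scale with its prior count. Of 94 groups examined (47 genes in 2 groups), 2 passed Dixon's critical value for 4 samples, where chance gives about 1 in 20, or 4.7. In the LPS group, Col22a1 had a ratio of 0.8883, with replicate 1 at 0.101 CPM (4 counts) and the others between 3.16 and 4.51 CPM. In the LPS + Tan group, Col6a4, a minor type VI chain, had a ratio of 0.8291, with replicate 2 at 0.409 CPM (16 counts) and the others between 0.743 and 0.811 CPM. On plain log2 CPM, a scale added after the data were seen, 5 groups passed, these 2 (0.907 for Col22a1 and 0.872 for Col6a4) and Col22a1 in LPS + Tan (0.849, replicate 4 lowest), Sparc in LPS (0.847, replicate 1 highest) and Col8a2 in LPS + Tan (0.895, replicate 1 lowest).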

How the results depend on the processing

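Of 306 comparisons of 18 members with 17 other settings, 248 kept direction and side of the 0.05 threshold, 30 crossed to below it, 13 lost it and 15 changed sign. Members higher or lower at an unadjusted p below 0.05 numbered 4 and 5 with DESeq2, 4 higher with library totals only, and 6 lower with no count filter. Leaving out 1 sample gave 1 to 4 higher, 1 to 6 lower and 0 to 3 past the thresholds of the study, where the 3 (Col8a1, Col10a1 and Col13a1) came without LPS + Tan replicate 2. Pathway genes called numbered 13 with no count filter and 4 to 25 with 1 sample left out (25 without LPS + Tan replicate 2). Shares of all genes called were counted for the main fit and DESeq2 only. At the other settings a rise in member or pathway counts cannot be told from a rise over all genes. Sign changes fell on genes with log2 fold changes near 0. Col8a2 was at -0.0168 with limma-voom, -0.00748 with the replicate block and -0.0836 to 0.176 with 1 sample left out. Sparc was at 0.0188 with library totals only, 0.0202 with limma on log2 FPKM at either pseudocount, and -0.0609 to 0.0273 with 1 sample left out. With 1 sample left out, Col4a1 ran from -0.111 to 0.0174, Col16a1 from -0.0367 to 0.201 and Lox from -0.0610 to 0.144. Fbln5 kept its side of the threshold in all 17. Replicate numbers did not pair the samples (correlations of same-numbered deviations 0.12, -0.03, -0.15 and 0.02, none the best for its number), and with the replicate block 2 members were higher (Eln and Fbln5, without Col8a1) and 4 lower. The causes of these moves were not tested. No member passed an adjusted p below 0.05 in any setting.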
